A study of Homo sapiens with 4 samples.

Results

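The genes described here are the alpha subunits of the hypoxia-inducible factors (HIF1A and EPAS1), proteins that mark them for destruction (VHL, EGLN1 and EGLN3) and genes commonly read as hypoxia reporters (NDRG1, BNIP3, BNIP3L, CA9 and ANKRD37). These 10 genes were listed by symbol. Of them, 9 had a probe set carrying their symbol alone, out of 18417 genes with such a probe set, and each of the 9 had 1 probe set. CA9 was not matched to a probe set, and its expression was not analysed here. The study hybridised RNA to 4 arrays, 1 each for HOS and U2-OS cells exposed to 0 or 600 μg/mL OGE for 24 h. HOS and U2-OS are established lines from human osteosarcoma, and the labels do not spell out OGE. The labels' protocols place all cultures in medium with serum under a humidified atmosphere with CO2 and name no low-oxygen culture. The series addresses how OGE affects the growth and gene expression of these lines.

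Hypoxia-inducible factors are pairs of an alpha and a beta subunit that switch on genes for survival at low oxygen. In normal oxygen, prolyl hydroxylases of the EGLN family modify the alpha subunit with the help of iron and 2-oxoglutarate, and VHL, the recognition subunit of a ubiquitin ligase, then binds it for degradation. Much of the control therefore lies at the protein, which arrays do not read. Without oxygen or iron the alpha subunit is stable, enters the nucleus, pairs with ARNT and binds a short core sequence near its target genes, among them EGLN3, EGLN1 and the reporters listed here.

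The promoters of 4 of these genes are shown because the genes differed in their change with OGE and in whether they hold that core. The core was searched as ACGTG and GCGTG on both strands in the 250 bases before the gene's start, in RefSeq sequence of GRCh38.p14. Of the 10 genes, 7 were matched in the sequence table and VHL, NDRG1 and BNIP3L were not. Capitals mark every match, also where 2 matches overlap, and each sequence reads 5′ to 3′ along the gene.
ANKRD37, chr4:185396591-185396840, plus strand: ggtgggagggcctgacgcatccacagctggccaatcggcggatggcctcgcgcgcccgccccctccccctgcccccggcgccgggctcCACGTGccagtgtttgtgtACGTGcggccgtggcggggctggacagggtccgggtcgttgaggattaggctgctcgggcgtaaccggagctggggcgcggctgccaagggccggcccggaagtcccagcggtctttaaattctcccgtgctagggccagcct
BNIP3, chr10:131981924-131982173, minus strand: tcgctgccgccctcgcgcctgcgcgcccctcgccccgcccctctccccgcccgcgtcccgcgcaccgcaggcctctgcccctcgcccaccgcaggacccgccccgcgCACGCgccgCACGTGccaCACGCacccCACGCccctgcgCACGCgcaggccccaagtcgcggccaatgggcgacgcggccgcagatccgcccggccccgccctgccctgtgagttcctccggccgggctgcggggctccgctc
EGLN1, chr1:231422288-231422537, minus strand: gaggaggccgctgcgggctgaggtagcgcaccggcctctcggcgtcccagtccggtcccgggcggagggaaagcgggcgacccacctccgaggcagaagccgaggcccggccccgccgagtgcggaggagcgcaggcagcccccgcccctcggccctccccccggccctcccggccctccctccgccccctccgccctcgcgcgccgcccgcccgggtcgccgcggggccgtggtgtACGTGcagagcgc
EGLN3, chr14:33951075-33951324, minus strand: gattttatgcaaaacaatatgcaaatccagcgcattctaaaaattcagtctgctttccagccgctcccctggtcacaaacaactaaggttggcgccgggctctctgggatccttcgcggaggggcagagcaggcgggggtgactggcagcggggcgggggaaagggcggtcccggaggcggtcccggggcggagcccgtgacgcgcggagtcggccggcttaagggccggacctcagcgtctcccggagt

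In ANKRD37 the search found 3 matches, all ACGTG. They comprise an overlapping pair on opposite strands from 162 to 157 bases before the start and a match from 143 to 139 bases before it. In BNIP3 it found 6 matches between 143 and 100 bases before the start, of which 2 were an overlapping pair of ACGTG and 4 were GCGTG on the other strand. EGLN1 had 1 match, an ACGTG from 13 to 9 bases before the start, and EGLN3 had 0 in this window. EPAS1 and the first of 2 HIF1A entries each had 1 GCGTG, and CA9 had 1 ACGTG on the other strand from 18 to 14 bases before the start. Either core occurred in 43.2% of all 35116 promoter entries of this length and ACGTG in 18.5%. Among measured genes at the expression floor in both lines, with the higher value at or above its array's median, 65.1% of 8614 with an entry held either core and 28.9% held ACGTG. A match describes the letters in this window and is no evidence of binding.

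The medians of the arrays over 33297 probe sets ranged from 3.58 to 3.62 (log2), and the arrays were all distinct. All 9 measured genes were at or above the array median on all 4 arrays, so none entered through only its higher group. Among markers of bone-forming and mesenchymal cells, 7 of 11 measured were at or above the median on every array, RUNX2, SP7 and COL1A1 among them, while SPP1 and IBSP were below it on all 4. All 5 measured haematopoietic and all 5 endothelial markers were below the median on all 4 arrays. Of the epithelial markers, KRT8 and KRT18 were at or above it on all 4 arrays and CDH1 was below it on all 4. With OGE, the median change of the bone-forming and mesenchymal markers at the floor was -0.36 in HOS and -0.59 in U2-OS, and the part of this in the results was not tested. With 1 array per group there was no replicate within a line, so differences between arrays of a line have no error of their own. A difference was called by size when it reached 2-fold, a log2 difference of 1, with the higher value at or above its array's median, the floor.

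**Figure D1:**
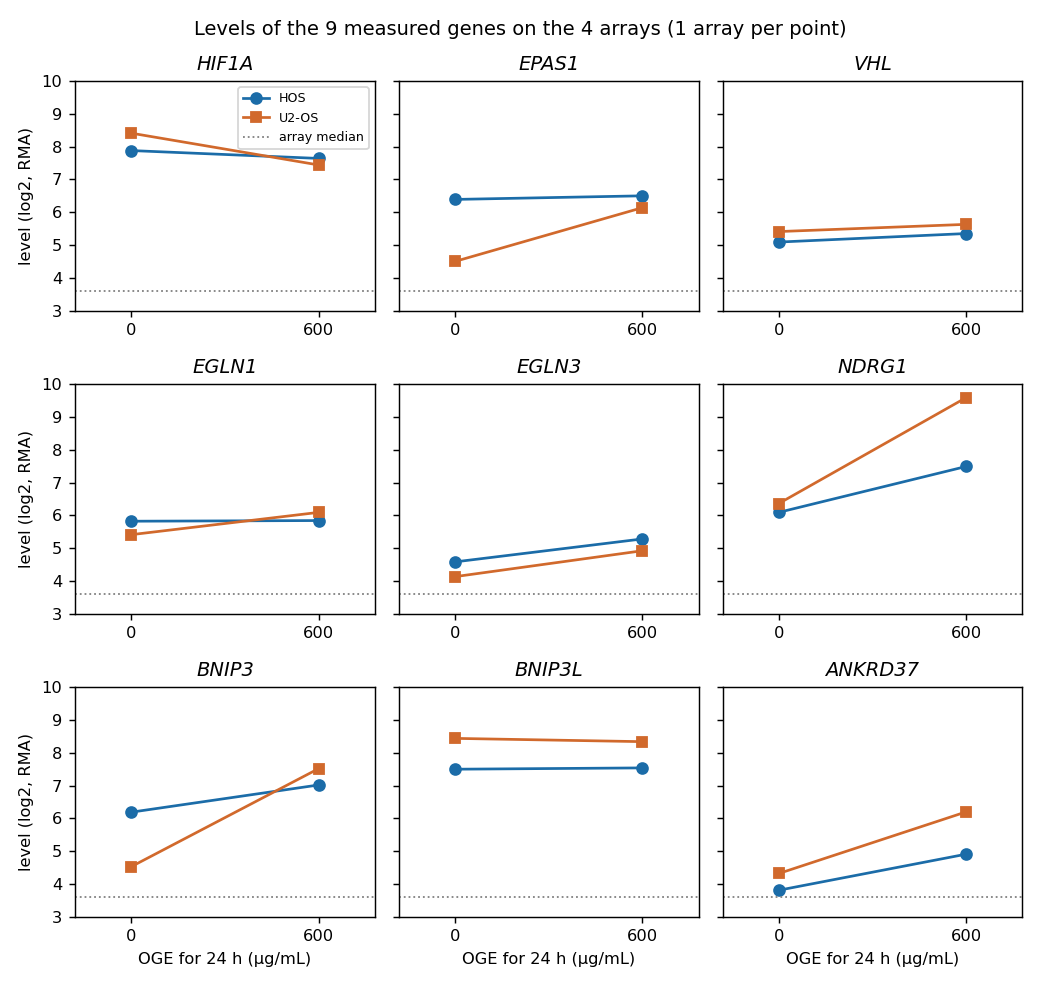
Levels of the 9 measured genes (log2, vertical axis) at 0 and 600 μg/mL OGE (horizontal axis) in HOS (circles) and U2-OS (squares), 1 array per point, with the mean of the array medians as a dotted line. NDRG1, BNIP3 and ANKRD37 were highest in U2-OS with OGE, at 9.59, 7.52 and 6.20.

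Of the alpha subunits, EPAS1 was higher with OGE in U2-OS and HIF1A was lower there by slightly under 2-fold. HIF1A encodes the broadly expressed alpha subunit. Its level was 7.88 in HOS without OGE and 7.64 with it, and 8.41 in U2-OS without OGE and 7.44 with it. The changes were -0.24 and -0.97 (log2), so the gene was just outside the size threshold in U2-OS. In bulk RNA, fewer cells of a kind and less RNA per cell cannot be told apart. As large a change in either direction was seen in 54.8% of genes at the floor in HOS and in 11.7% in U2-OS. EPAS1 encodes the other main alpha subunit, first described in endothelium. It was at 6.39 and 6.50 in HOS and at 4.50 and 6.14 in U2-OS, without and with OGE. The U2-OS array without OGE was the low one and the other 3 lay within 0.36 of each other. With OGE, EPAS1 differed by 0.11 in HOS, and in U2-OS the difference was 1.64. There it was 3.12-fold higher and ranked 93 of 11506 genes at the floor.

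Of the 3 genes whose proteins hydroxylate or bind the alpha subunits, none reached 2-fold with OGE in either line. EGLN3, a hydroxylase gene that is itself a target of the factors, was at 4.58 and 5.28 in HOS and at 4.13 and 4.92 in U2-OS. Its changes were 0.70 and 0.79, with a mean of 0.75 ± 0.064 (SD, n = 2 lines). Over the 9 measured genes this SD ranged from 0.028 for VHL to 1.527 for BNIP3. As large a change as that of EGLN3 was seen in 11.6% of genes in HOS and 17.7% in U2-OS. EGLN1, the hydroxylase held to be the main one at normal oxygen, was at 5.82 and 5.84 in HOS and at 5.41 and 6.09 in U2-OS. It was level in HOS, with 0.02, and 1.60-fold higher in U2-OS, with 0.68. VHL was at 5.09 and 5.35 in HOS and at 5.41 and 5.63 in U2-OS. Its changes of 0.26 and 0.22 were below the median absolute change of all genes at the floor, 0.27 in HOS and 0.35 in U2-OS.

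Of the 4 measured reporters, NDRG1 and ANKRD37 passed the size threshold upward in both lines and BNIP3 in U2-OS, while BNIP3L was level. NDRG1, a stress-responsive gene of differentiation named for its repression by MYCN, was at 6.09 and 7.49 in HOS and at 6.36 and 9.59 in U2-OS, without and with OGE. The arrays without OGE lay 0.27 apart and those with OGE 2.10 apart. NDRG1 was 2.64-fold higher in HOS and 9.38-fold in U2-OS, changes of 1.40 and 3.23. It ranked 51 of 11334 genes in HOS and 14 of 11506 in U2-OS.

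BNIP3 and BNIP3L encode related proteins of the outer mitochondrial membrane that recruit the autophagy machinery to mitochondria. BNIP3 was at 6.19 and 7.02 in HOS and at 4.53 and 7.52 in U2-OS. U2-OS was the lower line without OGE and the higher with it. The changes were 0.83, a 1.78-fold difference below the threshold, and 2.99, a 7.95-fold difference that ranked 17 in U2-OS. BNIP3L was at 7.50 and 7.54 in HOS and at 8.44 and 8.34 in U2-OS. Its changes of 0.04 and -0.10 were exceeded or matched by 92.9% and 85.5% of genes at the floor.

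ANKRD37, a small ankyrin-repeat protein gene known as a direct target of HIF1A, was at 3.81 and 4.91 in HOS and at 4.32 and 6.20 in U2-OS. Both arrays with OGE were above both arrays without it. The changes were 1.10 and 1.88, or 2.14-fold and 3.68-fold, at rank 131 in HOS and rank 70 in U2-OS. Its HOS value with OGE was below the 75th percentile of that array, 5.38.

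**Figure D2:**
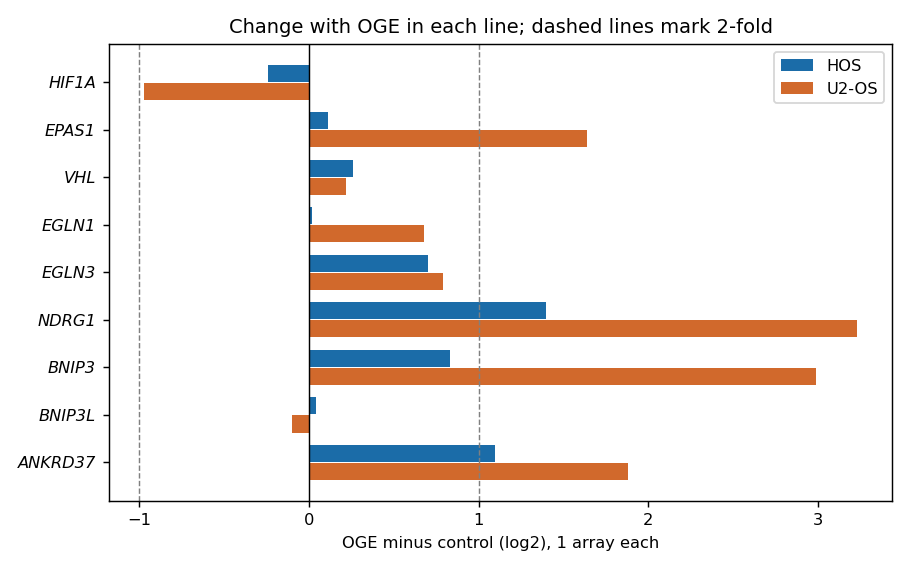
Change with OGE (log2, horizontal axis) of each gene in HOS and U2-OS, as bars from 0, 1 array per group. Dashed lines mark 2-fold, which NDRG1 and ANKRD37 passed in both lines and BNIP3 and EPAS1 in U2-OS.

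Calls of a higher level with OGE numbered 2 of the 9 genes in HOS and 4 of 9 in U2-OS, 22.2% and 44.4%, against 1.70% and 2.94% of all genes at the floor. In both lines 2 of 9 were called higher, against 0.768% of 10811 genes. No gene of the 9 was called lower, against 2.18% in HOS and 7.88% in U2-OS. The change was above 0 for 8 of 9 in HOS and 7 of 9 in U2-OS, against 51.7% and 48.8% of genes at the floor. In HOS this was 7 of 9 after quantile normalization or cyclic loess, where EGLN1 had -0.007 and -0.021, and in U2-OS it was 8 of 9 after quantile normalization, where BNIP3L had 0.022. The median change of the 9 was 0.26 in HOS and 0.79 in U2-OS, against 0.02 and -0.01 over genes at the floor. The change in U2-OS was more positive than in HOS for 6 of 9, against 45.5% of genes at the floor in both lines. The genes were listed with earlier results of these arrays known, so these counts describe them only.

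The lines are the repeats of the OGE contrast in the only test the design allows, limma over all 18417 genes with cell line as a term. By limma, 0 genes passed an adjusted p under 0.05 for OGE (0.00%), none of the 9 among them, with a smallest adjusted p of 0.228 over all genes. At an unadjusted p under 0.05 limma had 2615 genes. NDRG1, with a mean change of 2.31 and a standard error of 0.46, had an unadjusted p of 0.0052, and ANKRD37, with 1.49 and 0.25, one of 0.00255, both with an adjusted p of 0.228 in limma. EGLN3 and BNIP3 had adjusted p of 0.245 and 0.272. These 4 of the 9 genes, all higher, had unadjusted p under 0.05 in limma. Of all 18417 genes, 14.2% had this in either direction and 5.67% were higher at that level. The 9 genes were all at the floor, while the 18417 also include genes below it. HIF1A, with a mean change of -0.60, and EPAS1, with 0.88, had adjusted p of 0.368 and 0.414 in limma. The error behind a p-value for OGE here rests, before moderation, on the difference between the changes of the lines. The labels do not state whether the cultures were independent, and technical spread and a line's own response cannot be told apart in that error. After quantile normalization limma gave NDRG1 and ANKRD37 adjusted p of 0.0445 and 0.0442, where 264 of 18417 genes passed (1.43%), and over the other alternatives run their adjusted p lay between 0.0801 and 0.766.

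Between the lines, U2-OS was lower than HOS in EPAS1 and BNIP3 without OGE and higher in NDRG1 and ANKRD37 with it. EPAS1 differed by -1.89 without OGE and -0.36 with it, and BNIP3 by -1.66 and 0.50. These 2 of 9 were called lower in U2-OS without OGE, against 5.64% of all genes at the floor. NDRG1 differed by 0.27 without OGE and 2.10 with it, and ANKRD37 by 0.51 and 1.29. These 2 of 9 were called higher in U2-OS with OGE, against 4.89% of genes. None of the 9 was called in the same direction in both states, against 6.17% of genes. BNIP3L, with 0.94 and 0.80, was higher in U2-OS in both states by just under 2-fold, and HIF1A differed by 0.53 and -0.20. EGLN1 differed by -0.41 and 0.25, EGLN3 by -0.45 and -0.36 and VHL by 0.32 and 0.28. In limma over both states, 0 of the 9 passed an adjusted p under 0.05 between the lines, against 1.92% of genes, and 3 of 9 had an unadjusted p under 0.05, against 20.7%. The smallest adjusted p was that of BNIP3L, 0.0866 in limma. This contrast depended on the fit: the 354 genes that passed became 131 without the OGE term and 1763 after quantile normalization. BNIP3L passed in limma under 3 of the 6 alternatives, with adjusted p of 0.0174, 0.0316 and 0.0409. The difference of the responses, U2-OS minus HOS, was 2.16 for BNIP3, 1.83 for NDRG1, 1.53 for EPAS1 and 0.78 for ANKRD37. It was -0.73 for HIF1A, 0.66 for EGLN1, 0.09 for EGLN3, -0.04 for VHL and -0.14 for BNIP3L. No residual degree of freedom is left to test it.

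**Figure D3:**
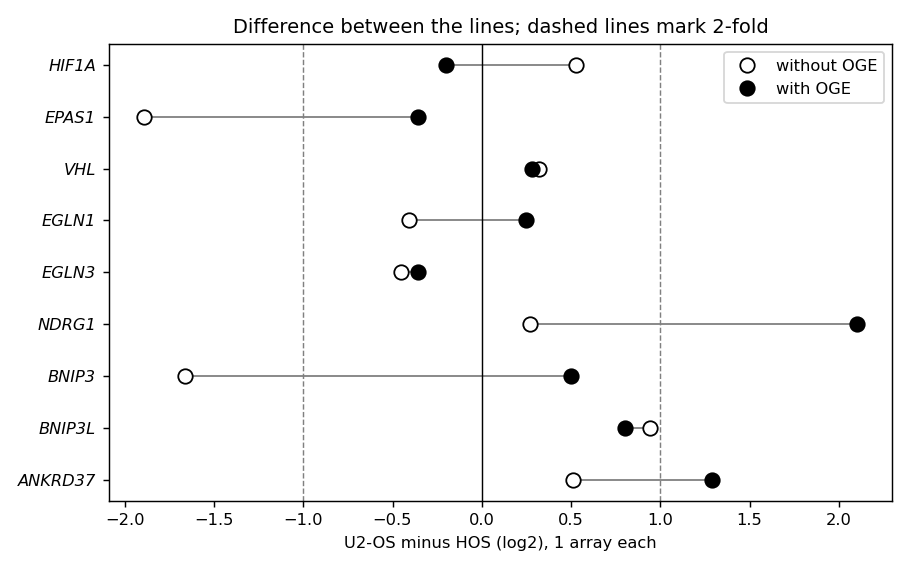
U2-OS minus HOS (log2, horizontal axis) for each gene without OGE (open circles) and with OGE (filled circles), 1 array per group, with 2-fold as dashed lines. EPAS1 and BNIP3 lay beyond 2-fold only without OGE, and NDRG1 and ANKRD37 only with it.

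Of 20 other measured genes of the oxygen-sensing machinery, 0 were called in HOS, where 3.88% of all genes at the floor were called in either direction. In U2-OS 2 were called, both higher, which is 10.0% of the list against 2.94%, with median changes of the list at the floor of 0.06 in HOS and -0.02 in U2-OS. CITED2, a target of the factors whose protein competes with them for the coactivators EP300 and CREBBP, was at 6.76 and 6.45 in HOS and at 6.07 and 7.58 in U2-OS. SIAH2, a ubiquitin ligase that degrades prolyl hydroxylases, was at 6.50 and 6.35 in HOS and at 5.87 and 7.36 in U2-OS. CITED2 and SIAH2 thus had changes of 1.51 and 1.49 in U2-OS and of -0.31 and -0.15 in HOS. CUL2, the scaffold of the VHL ligase, had changes of 0.06 and -0.95, and P4HTM, a membrane-bound prolyl hydroxylase, of 0.52 and -0.47. EGLN2, the remaining EGLN hydroxylase, shared its probe set with the readthrough gene RAB4B-EGLN2, which had changes of 0.51 and 0.41. Among 30 other dioxygenases that use iron and 2-oxoglutarate, 0 were called in HOS, 1 was higher in U2-OS and 1 lower. In U2-OS that is 3.3% of the list in each direction, against 2.94% higher and 7.88% lower of all genes at the floor. The 1 higher was JMJD6 with 1.28 and the 1 lower was the histone demethylase KDM5A with -1.14.

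Of 67 other measured target genes of the factors, HOS had 11 called higher and U2-OS 18, with 7 shared, and 0 and 1 were called lower. The higher calls are 16.4% and 26.9% of the list, against 1.70% and 2.94% of genes at the floor. The shared calls are 10.4%, against 0.768% of genes at the floor in both lines. The lower calls are 0.0% in HOS and 1.5% in U2-OS, against 2.18% and 7.88%. Median changes of the targets at the floor were 0.35 and 0.53. Several are also known targets of other stress pathways, and the list was written with earlier results known. Of 23 genes of glucose use, 3 were called higher in HOS and 8 in U2-OS. The glucose transporter SLC2A3 had changes of 2.59 and 2.66 and the neuronal enolase ENO2 of 1.35 and 1.81. The hexokinase HK2 had 0.34 and 4.41, and PDK1, a kinase that inhibits pyruvate dehydrogenase, 0.59 and 2.68. Of 19 secreted, receptor and matrix genes, 3 were higher in HOS and 2 in U2-OS. The angiogenic factor VEGFA had changes of 1.23 and 1.81, and the vasoactive peptide gene ADM 0.63 and 4.76. The chemokine receptor CXCR4, with 1.49 and -0.17, and STC2, a secreted glycoprotein gene, with 1.26 and -0.33, were called higher in HOS. Both U2-OS levels of CXCR4, 2.39 and 2.22, and of STC2, 3.06 and 2.73, were below the array median, as was that of CXCR4 in untreated HOS, 2.95. Of 25 intracellular targets, HOS had 5 called higher and U2-OS 8, with 4 shared (16.0% of the 25). DDIT4, an inhibitor of mTORC1, had 2.01 and 4.89, HMOX1, the heme oxygenase, 1.14 and 4.19, PLIN2, a lipid droplet coat, 1.51 and 3.32, and the repressor BHLHE40 0.79 and 2.72.

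HK2, ADM and PDK1 had the same order of arrays as BNIP3, with untreated U2-OS lowest, then untreated HOS, treated HOS and treated U2-OS. Of the 9 genes EGLN1 had this order too. So had 8 of the 58 targets at the floor in both lines (13.8%), against 5.44% of all 10811 such genes. HK2 was at 7.52 and 7.86 in HOS and at 4.90 and 9.31 in U2-OS. ADM was at 7.09 and 7.72 in HOS and at 4.92 and 9.68 in U2-OS. PDK1 was at 5.30 and 5.89 in HOS and at 3.96 and 6.64 in U2-OS. Over the 67 targets, 10 were called lower and 10 higher in U2-OS without OGE, and 6 lower and 14 higher with it. Without OGE these are 14.9% each, against 5.64% of genes at the floor lower and 8.26% higher. With OGE they are 9.0% and 20.9%, against 6.24% lower and 4.89% higher.

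**Figure D4:**
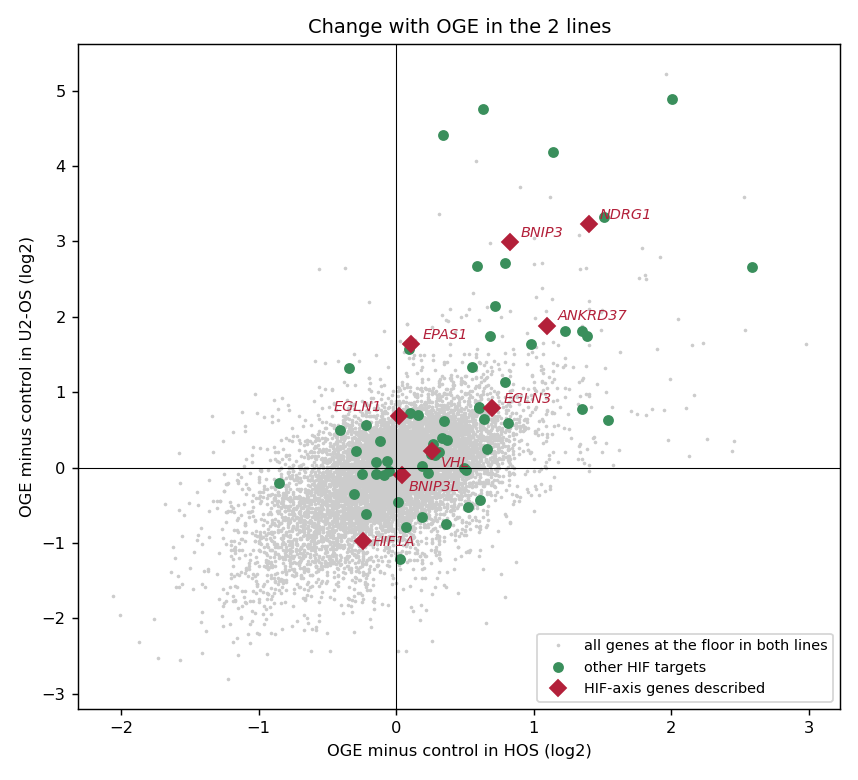
Change with OGE (log2) in HOS (horizontal axis) and U2-OS (vertical axis) for the 9 genes (diamonds), the other target genes at the floor in both lines (green circles) and all 10811 such genes (grey points), 1 array per group. BNIP3 and NDRG1 lay at 2.99 and 3.23 in U2-OS, and HIF1A at -0.97.

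Of 19 other measured genes with an NDRG, BNIP or carbonic anhydrase name, 0 were called in HOS and 2 in U2-OS. In U2-OS that is 10.5%, against 10.8% of all genes at the floor in either direction. The genes were grouped by name, which for BNIP1 and BNIP2 does not show kinship with BNIP3. The 10.5% also counts genes of this group below the floor in U2-OS, which could not be called, so these shares are not like for like. NDRG2, NDRG3 and NDRG4, relatives of NDRG1, had changes between -0.34 and 0.30 in HOS and between -0.63 and 0.24 in U2-OS, and none was called. BNIP1, a SNARE protein of the endoplasmic reticulum, had changes of 0.39 and 1.64, called in U2-OS, and BNIP2 of -0.36 and -0.44. Both untreated levels of BNIP1, 3.44 in HOS and 2.72 in U2-OS, were below the array median. Its call was lost with the floor at the 75th percentile. Of 14 measured genes of the carbonic anhydrase family, named for enzymes that interconvert carbon dioxide and bicarbonate, 7 were at the floor in U2-OS. Only CA12 was called, with 0.03 in HOS and -1.21 in U2-OS, while CA11 had -0.26 and -0.64, CA13 -0.25 and 0.47 and CA3 -0.39 and 0.26. Of 18 measured genes of the mitophagy machinery that BNIP3 and BNIP3L act with, 2 were higher by size in each line and 0 lower, which is 11.1% higher in each against 1.70% in HOS and 2.94% in U2-OS. The autophagy receptor SQSTM1 had changes of 2.15 and 1.63, and the ATG8 family members GABARAPL1 and MAP1LC3B 1.95 and 0.77, and 0.39 and 1.00. MAP1LC3B was exactly at the threshold in U2-OS and was not called there after quantile normalization or cyclic loess. Another probe set, which MAP1LC3B shares with MAP1LC3B2, had changes of 0.45 in HOS and 1.20 in U2-OS. FUNDC1, another mitophagy receptor, had changes of -0.64 and -0.58.

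For NDRG1 and ANKRD37, called in both lines, the most alike genes were sought among 10811 genes at the floor in both lines, by Euclidean distance over the 4 arrays after subtraction of each gene's mean. Nearest to NDRG1 were the immediate early gene FOS at a distance of 0.600, the stress factor ATF3 at 0.662 and ZFAND2A at 0.716. Nearest to ANKRD37 were CSRNP1 at 0.134, CPEB1 at 0.187 and GADD45B, a stress-induced gene of growth arrest, at 0.209. These distances rest on 4 arrays and describe them only. Of the genes called higher in both lines, 55 had a promoter entry, and 29.1% of these held ACGTG, against 28.9% of the genes at the floor. Of 56 other target genes with an entry, 62.5% held it. They were listed as known targets of the factors that bind this core, so their share is no independent result. The reason for either share was not tested.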

How the data were processed

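The deposited values were made by the authors with RMA, per the submitters' processing notes, and are probe set levels on a log2 scale. The file does not name a log base, which was taken as 2 from the range of 0.16 to 13.41. Values carry steps of 0.01. RMA draws low signals together and would hide a shift of all genes. The version and the genome build are not given in the sources used here. Probe sets with 1 symbol, 19460 of 33297, were named from the platform annotation and updated by gene ID through the RefSeq table, which matched 19429. The probe set with the highest mean stood for a gene. Levels were compared within a gene and never between genes.

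Calls by size used 2-fold and a floor at the array median over all probe sets. Shares of a list are of all its measured genes, also those below the floor, which cannot be called. Tests were limma 3.58.1 (R 4.3.3) fitted to all 18417 genes with a term for the line and a term for OGE, and Benjamini-Hochberg adjustment. The fit has 1 residual degree of freedom before moderation and was tested on simulated data. Alternatives were thresholds of 1.5-fold and 3-fold, no floor or the 75th percentile, quantile normalization, cyclic loess, the mean of probe sets, and limma with trend and robust moderation, without the other term or on genes at or above the median level. Genes named beside those listed are, of each list, up to 4 with the largest mean absolute change, and the 3 nearest to a gene called in both lines. The genes and lists were chosen with earlier results of these data known. Genes given as the only ones called, the array order of HK2, ADM and PDK1, and the promoters shown were picked after their values were seen.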

Additional observations from a re-analysis of the deposited data

Results flagged for a closer look

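Several genes had changes with OGE of opposite sign in the lines, with 1 array per group and no test of the difference. The difference of the responses, U2-OS minus HOS, was -0.14 for BNIP3L, whose changes of 0.04 and -0.10 had the same sign after quantile normalization, at 0.097 and 0.022. Among the oxygen-sensing genes it was 1.82 for CITED2, 1.64 for SIAH2, -1.01 for CUL2 and -0.99 for P4HTM. Among targets of the factors it was -1.66 for CXCR4, -1.59 for STC2 and -1.24 for CA12. For KDM5A it was -1.15, for CA13 0.72 and for CA3 0.65. These differences were not tested. Both U2-OS arrays of CXCR4 and STC2, untreated HOS in CXCR4 and treated HOS in CA3 were below the array median, so the sign of those changes rests on low values. After quantile normalization and after cyclic loess the opposite sign was lost for CA12, with -0.010 and -0.019 in HOS, and for KDM5A, with -0.030 and -0.036 there. The other 8 genes besides BNIP3L kept it under both, but CUL2 did so with HOS changes of only 0.02 and 0.009.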

How the results depend on the processing

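The limma fit pairs the arrays with and without OGE by line, and without that term it called 0 genes for OGE, as with it. No replicate block could be fitted, since each group holds 1 array and the labels give no replicate numbers. Of 252 alternatives for the changes of the 9 genes in each line and between the lines, 239 left the call as it was, 9 added one, 4 lost one and no call reversed. The 36 with the mean of probe sets and the 36 without a floor could change no call. Each of the 9 genes had 1 probe set and all were at the floor. The 3-fold threshold and the floor at the 75th percentile could only lose calls, and 1.5-fold could only add them. Many of the 239 were therefore fixed beforehand. Only quantile normalization and cyclic loess altered a value, so only these could reverse a sign. ANKRD37 lost its call in HOS with the floor at the 75th percentile, and it and NDRG1 lost theirs there at 3-fold. BNIP3L passed 2-fold between the lines without OGE after quantile normalization, with 1.04, and cyclic loess, with 1.03. Genes called higher of the 9 numbered 4 in HOS and 4 in both lines at 1.5-fold, 0 and 0 at 3-fold, and 1 and 1 with the floor at the 75th percentile, and 1 was lower in U2-OS at 1.5-fold. Over all genes, 1.5-fold gave 1939 calls in HOS, 3296 in U2-OS, 944 in both and 1774 between the lines, and 3-fold gave 48, 293, 19 and 206. The floor at the 75th percentile gave 445 between the lines. For OGE, limma called 264 genes after quantile normalization and 1 with trend and robust moderation. Between the lines it called 1763 after quantile normalization, 1326 after cyclic loess, 1309 with trend and robust moderation, 131 without the OGE term and 749 on the upper part of the genes by mean level. The cause was not tested. BNIP3L passed limma between the lines in 3 of these, with adjusted p from 0.0174 to 0.0409. The number of arrays limits the precision.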
